A study of Mus musculus with 14 samples.

Results

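DR-ESC, mouse embryonic stem cells that had resisted neural differentiation, were compared with Oct4-GFP-ESC, the unsorted line they came from. To obtain DR-ESC, the line was driven towards neural cells in the serum-free medium N2B27, cells still positive for the reporter were sorted on day 8, and the sorted cells were then grown on in stem cell medium. Oct4-GFP-ESC carry green fluorescent protein (GFP) as a reporter for Oct4, the transcription factor encoded by Pou5f1, and were kept in serum with the cytokine LIF at 10 ng/ml over fibroblast feeders whose division had been stopped with mitomycin C. Whether DR-ESC were grown over feeders, for how long, and with how much LIF is not given in the sources used here. The other 2 RNA libraries are shown for context: Oct4-GFP-H-ESC, the same line sorted for a high reporter signal, and NPC(GFP-), the reporter-negative neural progenitors sorted on day 8. Below, Oct4-GFP-ESC are called the parental line, Oct4-GFP-H-ESC the GFP-high cells and NPC(GFP-) the progenitors. Each of the 4 populations gave 1 poly(A) RNA library, and 10 of the 14 samples of the series, from chromatin immunoprecipitation and input DNA, were not analysed here.

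The comparison covers every gene with at least 1 FPKM (sequenced fragments, scaled by transcript length and library depth) in either DR-ESC or the parental line, which are 12260 of the 13180 genes in the table. At the limit, Dagla entered with 1.00 FPKM in the higher of the 2 libraries, and 1700108F19Rik stayed out with 0.998 FPKM. The difference is log2(FPKM + 1) in DR-ESC minus the same in the parental line, a scale that understates the difference of genes with few FPKM. With 1 library on each side there is no replicate check, and "higher" and "lower" refer to size alone, at least 2-fold where counted. Read depth is unknown.

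Embryonic stem cells in serum renew themselves under LIF, which acts through STAT3, and under bone morphogenetic proteins, which act through the Id proteins. As they leave the naive state they pass through formative and primed states, in which they become responsive to the signals that pattern the embryo, among them Hedgehog, Notch, Wnt, FGF and retinoic acid. Cells that keep the Oct4 reporter after a differentiation protocol are of interest because undifferentiated cells left in a transplant can form tumours.

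As deposited, 362 genes (2.95%) were higher in DR-ESC and 1492 (12.2%) were lower, with a median log2 difference over all genes of -0.29. The difference depended on abundance. In the eighth of the genes with the lowest levels (median 1.12 FPKM) the median log2 difference was 0.00, and 105 genes were higher and 116 lower. In the eighth with the highest levels (median 97.3 FPKM) it was -0.84, with 7 genes higher and 518 lower. A similar slope, reaching -0.64 in the eighth with the highest levels, separated the GFP-high cells from the parental line, while DR-ESC against the GFP-high cells gave -0.18. Over the 13180 genes the FPKM values summed to 398522 in DR-ESC, 437605 in the GFP-high cells and 687303 in the parental line, so that the parental line stood apart from both.

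**Figure D1:**
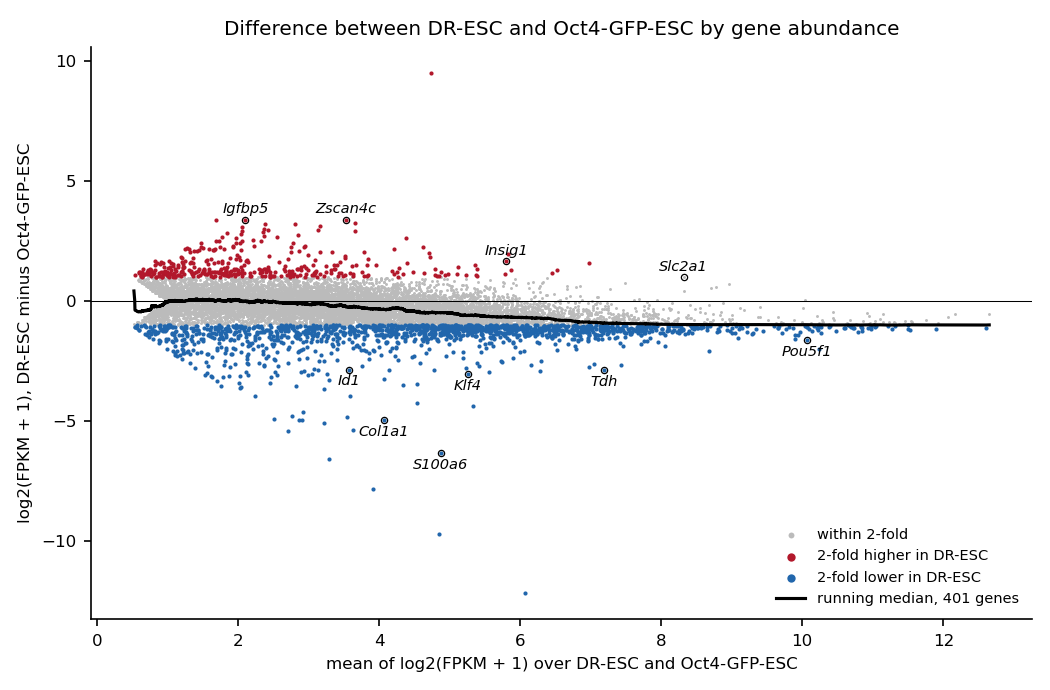
Each point is 1 of 12260 genes, placed by its mean log2(FPKM + 1) over the 2 libraries and by its log2(FPKM + 1) in DR-ESC minus that in Oct4-GFP-ESC. The black line is the running median over genes of like level, which lies near 0 for genes of low level and sinks below 0 as the level rises. Genes such as Slc2a1 lie far above the line without being 2-fold higher, and the few points beyond 6 in either direction are small RNA genes, S100a4 and S100a6.

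Each difference was therefore also taken against the running median of genes of like abundance. On this scale DR-ESC was higher for 578 genes (4.71%) and lower for 559 (4.56%). Multiplying the DR-ESC values by a constant gave other splits: 980 higher and 489 lower when the ratios of expressed genes were centred on 0, 1030 and 464 with equal upper quartiles, and 2089 and 296 with equal sums. These moved the median log2 difference of all genes to 0.10, 0.12 and 0.40. Under all of these scalings at once 355 genes (2.9%) were higher and 281 (2.29%) lower. The counts and medians of the gene lists are given below as deposited and with the trend removed. They are to be read beside the shares over all genes. Those were 2.95% higher and 12.2% lower as deposited, and 4.71% and 4.56% with the trend removed. A count near these shares sets a list apart from other genes in no way. Of the 64 gene lists described, sterol synthesis, Hox, neural progenitor and 2-cell-like genes lay highest with the trend removed and fibroblast genes lowest.

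**Figure D2:**
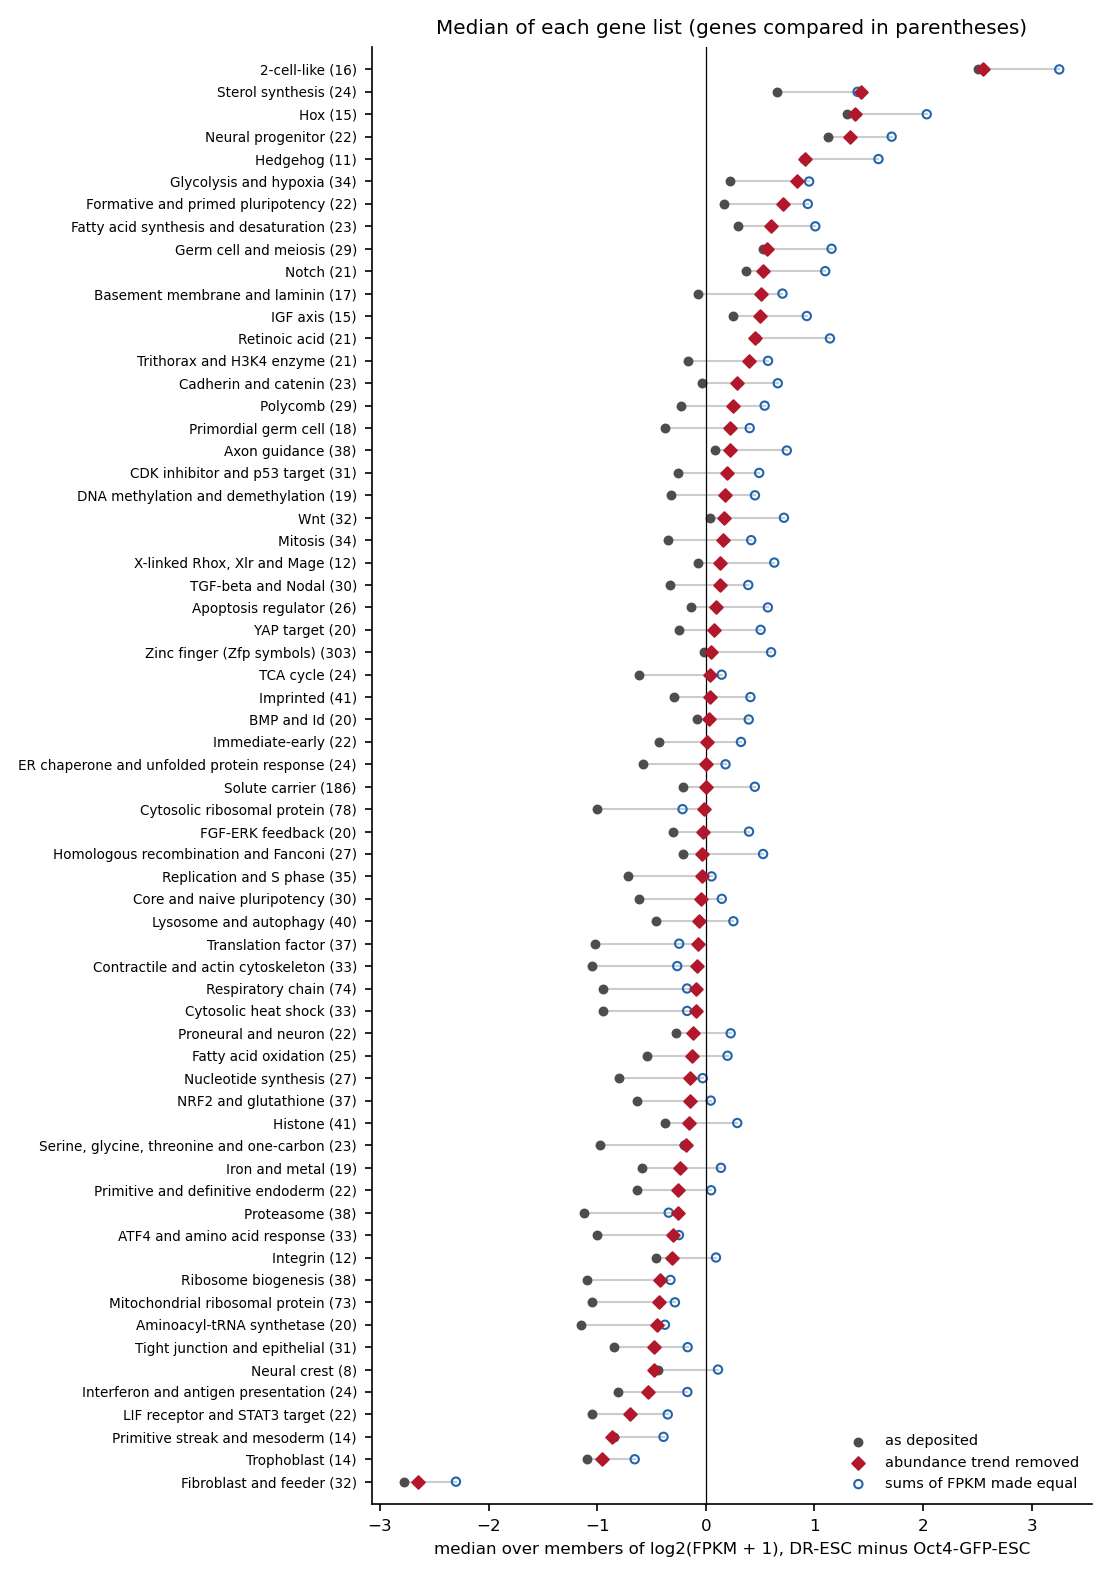
Median log2(FPKM + 1) in DR-ESC minus that in Oct4-GFP-ESC for each of 64 gene lists, with the number of genes compared in parentheses. Dark grey dots are the deposited values, red diamonds the values with the abundance trend removed and open blue circles the values with equal sums of FPKM. The highest is the 2-cell-like list at 2.55 with the trend removed and the lowest is the fibroblast list at -2.65.

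DR-ESC carried the markers of embryonic stem cells, and markers of other cell types differed between the libraries. All 10 embryonic stem cell markers exceeded 5 FPKM in DR-ESC and in the parental line, and summed to 2165 FPKM in DR-ESC, 4379 in the parental line, 2875 in the GFP-high cells and 125 in the progenitors. These sums are as deposited, where all genes summed to 398522 FPKM in DR-ESC and 687303 in the parental line. With the trend removed, markers differed both ways: Pou5f1 by -0.64, Esrrb by -0.42, Zfp42 by -0.19, Sox2 by 0.36 and Nanog by 1.07. Of 14 fibroblast markers 12 were in the table. They summed to 11.5 FPKM in DR-ESC, 434 in the parental line, 400.4 in the GFP-high cells and 15.9 in the progenitors, and S100a4 was listed at 0 in DR-ESC and in the progenitors. The 10 neural progenitor markers summed to 94.3 FPKM in DR-ESC, 48.6 in the parental line, 30.6 in the GFP-high cells and 765 in the progenitors. Markers of neurons (7 of 8 in the table) summed to 53.8 FPKM in DR-ESC and 170 in the parental line, those of primitive endoderm (8 of 8) to 80.0 and 102, those of trophoblast (7 of 8) to 7.86 and 24.1, and those of mesoderm (3 of 8) to 2.45 and 17.1. Of the blood markers 2 of 8 were in the table, and Lyz2 was listed at 0 in DR-ESC, against 5.84 FPKM in the parental line. In RNA of a whole culture, fewer cells of a type and less RNA per cell cannot be told apart, and the part of fibroblast RNA in the genes that are lower in DR-ESC was not tested.

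Within pluripotency, several STAT3 target genes, Klf4 among them, were lower in DR-ESC and several genes of the formative state were higher. Of 22 LIF receptor and STAT3 target genes, 0 were higher and 13 lower as deposited (median -1.04), and 0 and 6 with the trend removed (median -0.70). Klf4, a factor of the naive state and a STAT3 target (GRCm38.p6 chromosome 4, 55527137 to 55532475), had 12.3 FPKM in DR-ESC, compared with 109 in the parental line, 72.6 in the GFP-high cells and 7.35 in the progenitors. Bcl3, an atypical IκB protein, had 2.36 FPKM in DR-ESC, compared with 26.5 in the parental line and 17.5 in the GFP-high cells. Socs3, the feedback inhibitor of the pathway, had 10.9 FPKM in DR-ESC, compared with 30.1, 33.8 and 35.7 in the parental line, the GFP-high cells and the progenitors, so DR-ESC was the lowest of the 4. The receptor genes did not share this difference: Lifr had 6.52 FPKM in DR-ESC, compared with 5.30 in the parental line, and Il6st, its signalling partner, 15.8 against 13.4. How much LIF the DR-ESC culture received is not given, and the parental line had 10 ng/ml. Fibroblast markers summed to 11.5 FPKM in DR-ESC and 434 in the parental line. Neither the part of LIF dose nor that of fibroblast RNA in these differences was tested.

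The core and naive list of 30 genes had 0 higher and 10 lower members as deposited (median -0.62). With the trend removed it had 1 higher and 1 lower (median -0.04), and with equal sums its median was above 0 (0.15). Klf4 was the lower one and Nanog, a core factor, the higher one, with 145 FPKM in DR-ESC, compared with 129 in the parental line and a trend-removed difference of 1.07. Nr0b1 (21.2 FPKM in DR-ESC, compared with 58.6), Tbx3 (15.4 against 43.2) and Gbx2 (9.82 against 24.0) lay below the trend by 0.83 to 0.96 on the log2 scale, short of 2-fold. Zic2, a zinc finger factor of the formative state, had 52.7 FPKM in DR-ESC, more than in any other library (10.3 in the parental line, 4.42 in the GFP-high cells and 8.66 in the progenitors). Its neighbour Zic5 had 15.2 FPKM in DR-ESC, compared with 5.49, 3.17 and 1.79. In the formative and primed list of 22 genes, 6 were higher and 3 lower as deposited (median 0.17), and 7 and 3 with the trend removed (median 0.72). Dnmt3l, a cofactor of the de novo DNA methyltransferases, was among the lower ones, with 54.6 FPKM in DR-ESC, compared with 220 in the parental line and 277 in the GFP-high cells.

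Of the 64 lists, the one with the highest median was that of the 2-cell-like state, a rare and transient state of cultured stem cells that resembles the embryo after its first division. All 16 genes of that list that could be compared were at least 2-fold higher in DR-ESC, as deposited, with the trend removed and under every other scaling, with medians of 2.51 as deposited and 2.55 with the trend removed. This list, like the others, was chosen with earlier results of these data known. Its members include copies of Zscan4 that may share reads, so they are not 16 separate observations. Summed over the list, DR-ESC had 222 FPKM, the parental line 20.7, the GFP-high cells 219.8 and the progenitors 4.27. Among the 3 stem cell libraries the parental line was therefore the low one, and DR-ESC and the GFP-high cells were nearly level. Zscan4c had 36.4 FPKM in DR-ESC, compared with 2.59 in the parental line and 34.6 in the GFP-high cells. Tmem92 had 11.1 FPKM in DR-ESC, compared with 0.420 and 7.10, and Sp110, a nuclear body protein, 8.36 against 0.778 and 12.3.

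The Zscan4 genes are copies of one another, and reads from one copy may have been counted for another. Their promoter windows show how alike some of them are around the start, and of their RNA they hold the first bases only. RefSeq (GRCm38.p6) gives the windows from 250 bases before to 50 bases after the transcription start of 4 of the copies. The 2 with the highest FPKM are printed, both on the plus strand, with capitals marking the longest run of letters that they share. It is 127 bases of the 300 and lies before the start, so the run itself does not bear on how reads were assigned. The letters after the run are also largely alike, and those past the start belong to the RNA. In the other pairs of the 4 copies the longest shared run was shorter, 55 to 86 bases.
Zscan4c, chr7:11005495-11005794: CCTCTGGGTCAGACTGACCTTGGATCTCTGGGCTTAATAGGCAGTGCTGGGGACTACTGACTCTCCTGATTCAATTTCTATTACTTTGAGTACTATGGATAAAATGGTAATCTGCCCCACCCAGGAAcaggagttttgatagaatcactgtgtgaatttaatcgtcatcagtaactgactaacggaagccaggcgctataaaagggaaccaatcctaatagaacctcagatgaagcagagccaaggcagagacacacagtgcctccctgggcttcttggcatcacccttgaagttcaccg
Zscan4f, chr7:11397665-11397964: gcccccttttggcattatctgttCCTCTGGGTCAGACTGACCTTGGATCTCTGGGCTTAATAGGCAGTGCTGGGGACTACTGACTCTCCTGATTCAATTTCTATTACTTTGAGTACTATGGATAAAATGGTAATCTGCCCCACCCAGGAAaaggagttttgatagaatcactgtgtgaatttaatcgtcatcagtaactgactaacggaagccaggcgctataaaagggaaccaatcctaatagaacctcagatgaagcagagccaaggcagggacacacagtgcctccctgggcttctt
A sum over the copies is less open to that division. Over the 6 Zscan4 genes in the table it was 129 FPKM in DR-ESC, 9.23 in the parental line, 118 in the GFP-high cells and 0.0831 in the progenitors.

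Some genes that differed together stood side by side on a chromosome. By a rule set after the values had been seen, stretches were taken in which at least 5 of 8 consecutive compared genes were 2-fold apart in 1 direction with the trend removed, and 8 such stretches were found, 6 higher and 2 lower in DR-ESC. Besides Zscan4 on chromosome 7, 4 of the higher stretches held multicopy genes of families that are active in 2-cell-like cells. On chromosome 12 (87514316 to 88321762) all 6 genes, predicted genes from Gm8300 to Gm5039, were higher and summed to 64.2 FPKM in DR-ESC, 5.44 in the parental line and 80.0 in the GFP-high cells. On chromosome 4 (143535954 to 144364419) all 7, from Gm13040 to Gm13119 and including Pramef6, were higher and summed to 32.2, 1.87 and 24.45 FPKM in the 3 stem cell libraries in the same order. On chromosome 13 (119690351 to 120318261) 7 of 8 were higher, and this stretch runs from the sterol gene Hmgcs1 to Tcstv1 and Tcstv3, of which Tcstv3 had 5.62 FPKM in DR-ESC, 0.526 in the parental line and 7.63 in the GFP-high cells. On chromosome 5 (93267573 to 96784733) 5 of 7 were higher, among them the predicted genes A430089I19Rik and AA792892. These predicted genes are also multicopy families, and each value is as uncertain as those of Zscan4.

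The Hoxa cluster differed from these, since its genes were higher in DR-ESC than in both of the other stem cell libraries. Hoxa4 had 3.26 FPKM in DR-ESC, 0.584 in the parental line, 0.333 in the GFP-high cells and 8.30 in the progenitors. The row that joins Hoxa5 and Hoxa6 had 7.27, 0.760, 0.547 and 5.34 FPKM in the same order. Hoxa10, towards the posterior end (chromosome 6, 52231197 to 52240854), had 9.38 FPKM in DR-ESC, 1.11 in the parental line and 0.277 in the progenitors, and Hoxa9 had 4.24, 0.175 and 0.0680. Of the 15 Hox rows compared, 8 were higher and 2 lower as deposited (median 1.30), and 9 and 2 with the trend removed (median 1.37). The lower ones, Hoxc6 and Hoxc8, which also pattern the trunk, had 0.170 and 0.0542 FPKM in DR-ESC, compared with 2.75 and 2.31 in the parental line. Whether fibroblast RNA had a part in these lower levels was not tested.

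**Figure D3:**
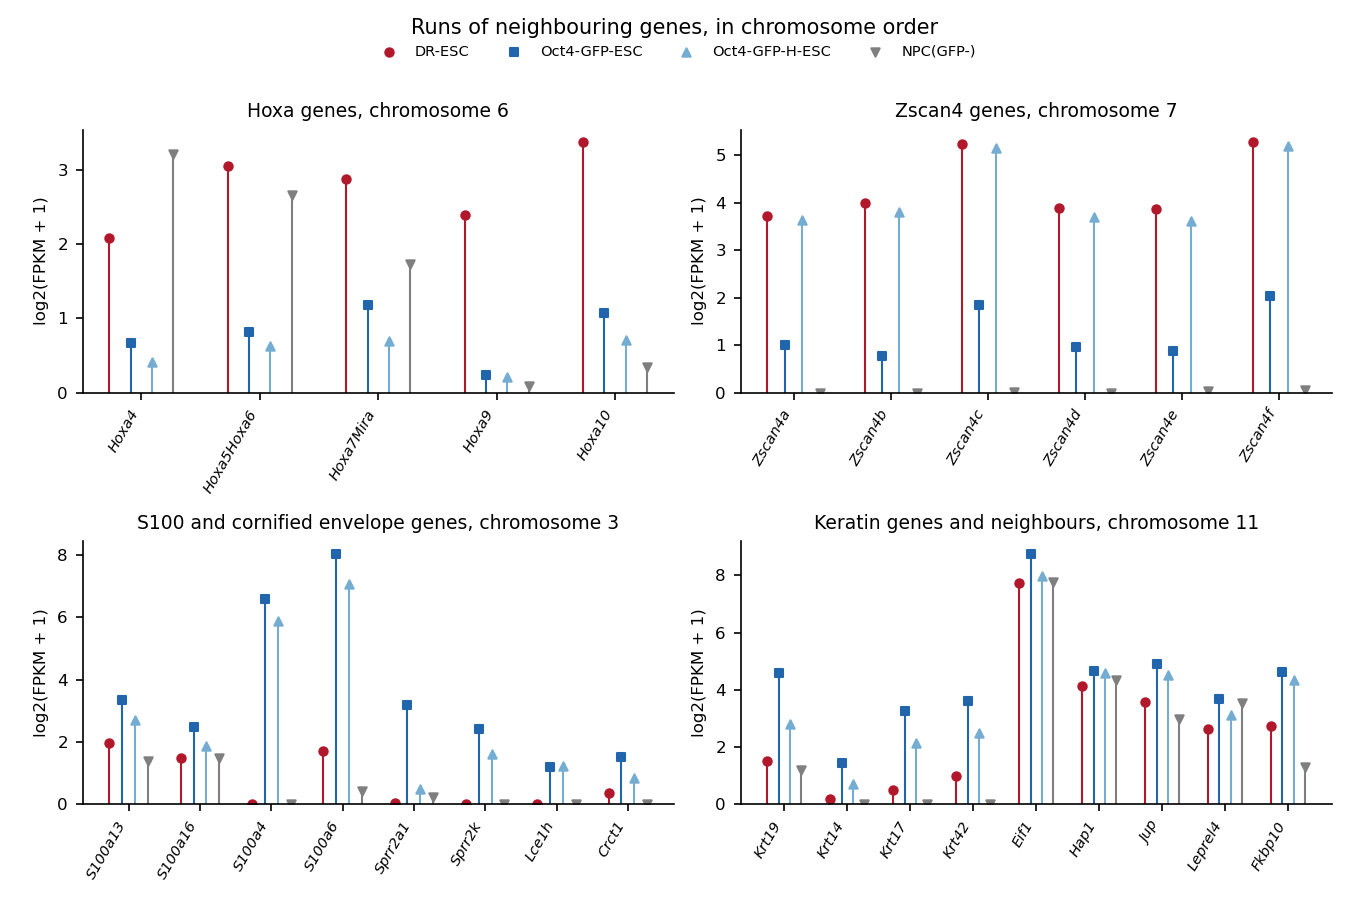
Levels, as log2(FPKM + 1), of the genes in 4 stretches of neighbouring genes, in chromosome order and not to scale. Red circles are DR-ESC, blue squares Oct4-GFP-ESC, light blue triangles Oct4-GFP-H-ESC and grey inverted triangles NPC(GFP-). Zscan4 genes are alike in DR-ESC and Oct4-GFP-H-ESC, Hoxa genes are high in DR-ESC among the stem cell libraries, and the S100, cornified envelope and keratin genes are lower in DR-ESC than in the parental line and the GFP-high cells.

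Both lower stretches hold genes of stratified epithelia. S100a4 and S100a6 of the first are also among the fibroblast genes. On chromosome 3 (90514233 to 93015686), the region of the S100 calcium-binding proteins and of the precursors of the cornified cell envelope, 7 of 8 genes were lower and the 8 summed to 7.26 FPKM in DR-ESC, 384 in the parental line, 203 in the GFP-high cells and 3.90 in the progenitors. S100a6 (90612894 to 90614414) had 2.29 FPKM in DR-ESC, 260.4 in the parental line and 132 in the GFP-high cells. Sprr2a1, a cornified envelope precursor, had 0.0350 FPKM in DR-ESC, 8.08 in the parental line and 0.415 in the GFP-high cells, so that among the stem cell libraries it was high in the parental line. On chromosome 11 (100140810 to 100424840), 6 of 9 genes were lower. Krt19 had 1.87 FPKM in DR-ESC, compared with 22.9 in the parental line, Krt17 0.429 against 8.67 and Krt42 1.01 against 11.1, while Eif1, a translation initiation factor in the midst of them, stood on the trend (-0.06) with 209 against 431.

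Among signalling pathways, Hedgehog, Notch and retinoic acid genes were higher in DR-ESC in several members. Of 11 Hedgehog pathway genes compared, 3 were higher and 0 lower as deposited (median 0.90), and 4 and 0 with the trend removed (median 0.91). Leaving out genes under 5 FPKM in both DR-ESC and the parental line gave a deposited median of 0.48. Ptch1, the receptor of Hedgehog proteins and a target of the pathway (chromosome 13, 63508328 to 63573460), had 35.4 FPKM in DR-ESC, 11.2 in the parental line, 7.38 in the GFP-high cells and 43.0 in the progenitors. Smo, the transducer, had 20.5, 10.2, 6.21 and 37.3 FPKM in the same order. The co-receptors Cdon, Boc and Gas1 were also above the trend, by 0.93 to 1.25. Gli1, the target gene most often used as a readout of the pathway, did not follow: it had 6.94 FPKM in DR-ESC and 13.7 in the parental line, a trend-removed difference of -0.71.

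Of 21 Notch pathway genes 5 were higher and 1 lower as deposited (median 0.37), and 6 and 0 with the trend removed (median 0.53). The receptors Notch1, Notch2 and Notch3 had 7.51, 13.4 and 28.0 FPKM in DR-ESC, compared with 3.85, 5.24 and 11.7 in the parental line. The ligand Dll1 and the target Hes5, both genes of neural progenitors, had 4.91 and 2.22 FPKM in DR-ESC, compared with 0.970 and 0.256 in the parental line and 49.5 and 67.7 in the progenitors. Hes1, a target used by many cell types, was not 2-fold apart, with 22.4 FPKM in DR-ESC and 23.4 in the parental line, and its sign depends on the scaling (-0.07 as deposited and 0.42 with the trend removed). Of 21 retinoic acid genes 7 were higher and 0 lower as deposited (median 0.47), and 8 and 0 with the trend removed (median 0.46). The deposited median was -0.04 when genes under 5 FPKM in both DR-ESC and the parental line were left out. Crabp2, a carrier that brings retinoic acid to its receptors, had 38.0 FPKM in DR-ESC, 7.84 in the parental line, 4.94 in the GFP-high cells and 475 in the progenitors. Stra8, a retinoic acid target of meiotic germ cells, had 67.9, 23.3 and 11.7 FPKM in the stem cell libraries and 0.0282 in the progenitors. The receptors Rara and Rxra, with 26.99 and 6.63 FPKM in DR-ESC, compared with 27.4 and 6.92 in the parental line, were nearly level as deposited (-0.02 and -0.05) and above the trend by 0.46 and 0.07.

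Neural progenitor genes were higher in DR-ESC in many members, while their sum was not. Summed over the list, DR-ESC had 281 FPKM, the parental line 438, the GFP-high cells 289 and the progenitors 1928. Vim, given below, made up most of the sum in the parental line. Of 22 genes 11 were higher and 1 lower as deposited (median 1.13), and 13 and 1 with the trend removed (median 1.33). Irx3, a homeobox factor of the neural tube, had 17.7 FPKM in DR-ESC, 1.82 in the parental line and 53.9 in the progenitors. Fabp7, a lipid carrier of radial glia, had 5.41, 0.412 and 168 FPKM in that order, so the 2 genes reached very unequal shares of their levels in the progenitors. The lower gene was Vim, which encodes the intermediate filament vimentin and is also abundant in fibroblasts, with 52.0 FPKM in DR-ESC, 328 in the parental line, 207 in the GFP-high cells and 643 in the progenitors. Of 22 neuron genes, 1 was higher and 5 lower as deposited, 1 and 4 with the trend removed, and the median was -0.28 as deposited, -0.12 with the trend removed and 0.23 with equal sums. Among the lower ones, Stmn2, which encodes a microtubule-binding protein of growing axons, had 30.1 FPKM in DR-ESC, compared with 117 in the parental line.

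BMP and Wnt genes differed in both directions. Id1 (chromosome 2, 152736251 to 152737410), an inhibitor of basic helix-loop-helix factors and a direct BMP target, had 3.43 FPKM in DR-ESC, the lowest of the 4 libraries, against 31.0 in the parental line, 36.5 in the GFP-high cells and 16.2 in the progenitors. Id3, a further BMP target, had 10.9 FPKM in DR-ESC, compared with 52.99, 42.6 and 49.8. The ligand Bmp4 had 1.41 FPKM in DR-ESC, compared with 9.97 in the parental line, and the ligand Bmp7 (chromosome 2, 172868012 to 172940321) 15.6 against 2.55, so the ligands differed in opposite directions. Any part of fibroblast RNA in the lower levels of Id1, Id3 and Bmp4 was not tested. The receptors Acvr2b and Bmpr2 were higher, with 26.3 and 6.83 FPKM in DR-ESC, compared with 11.5 and 2.88. Over the 20 genes of the list, 3 were higher and 5 lower both as deposited and with the trend removed. The median was -0.08 as deposited, 0.28 as deposited without genes under 5 FPKM in both, 0.03 with the trend removed and 0.40 with equal sums.

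Of 32 Wnt genes 4 were higher and 8 lower as deposited (median 0.04), and 7 and 7 with the trend removed (median 0.17). The higher ones were led by Sfrp2, a secreted Wnt antagonist (20.4 FPKM in DR-ESC, compared with 6.62 in the parental line), the ligand Wnt8a (8.79 against 3.17) and the receptor Fzd2 (16.8 against 7.61). The lower ones were led by the targets Cdx1 (1.09 against 23.2) and Sp5 (1.32 against 7.46) and by the antagonist Dkk1 (0.275 against 4.18). For these too, the part of fibroblast RNA was not tested. Axin2, a target used in many tissues, was nearly level, with 5.48 FPKM in DR-ESC and 5.67 in the parental line. Cdx1 and Sp5 are also genes of the primitive streak, and that list of 14 had 0 higher and 7 lower both as deposited (median -0.84) and with the trend removed (median -0.87). T, the factor Brachyury of early mesoderm, had 1.01 FPKM in DR-ESC, 16.1 in the parental line and 0.914 in the GFP-high cells, so the high level was that of the unsorted line.

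FGF genes also went both ways, with 3 of 20 higher and 5 lower as deposited, 3 and 4 with the trend removed, and a median of -0.30 as deposited, -0.03 with the trend removed and 0.40 with equal sums. Etv4 and Spry4, an effector and a feedback inhibitor induced by FGF signalling, had 16.2 and 4.31 FPKM in DR-ESC, compared with 101 and 20.1 in the parental line. The ligands Fgf15 and Fgf5 had 12.4 and 5.31 FPKM in DR-ESC, compared with 4.59 and 1.86 in the parental line, and the ligand Fgf17 11.8 against 44.6. In the TGF-beta and Nodal list, where 2 of 30 were higher and 7 lower as deposited, 5 and 5 with the trend removed, and the median was -0.33 as deposited but 0.13 with the trend removed, Inhba and Inhbb, the subunits of the activins, had 0.0445 and 0.678 FPKM in DR-ESC, compared with 30.0 and 17.1 in the parental line. In the insulin-like growth factor list Igfbp5 and Igfbp7, which encode binding proteins of the growth factors, differed in opposite directions. Igfbp5 (chromosome 1, 72858065 to 72874865) had 12.9 FPKM in DR-ESC, 0.336 in the parental line, 0.252 in the GFP-high cells and 37.9 in the progenitors, while Igfbp7, which is abundant in fibroblasts, had 0.292, 35.1, 38.3 and 0.0385. The part of fibroblast RNA in the lower levels of Inhba, Inhbb and Igfbp7 was not tested.

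**Figure D4:**
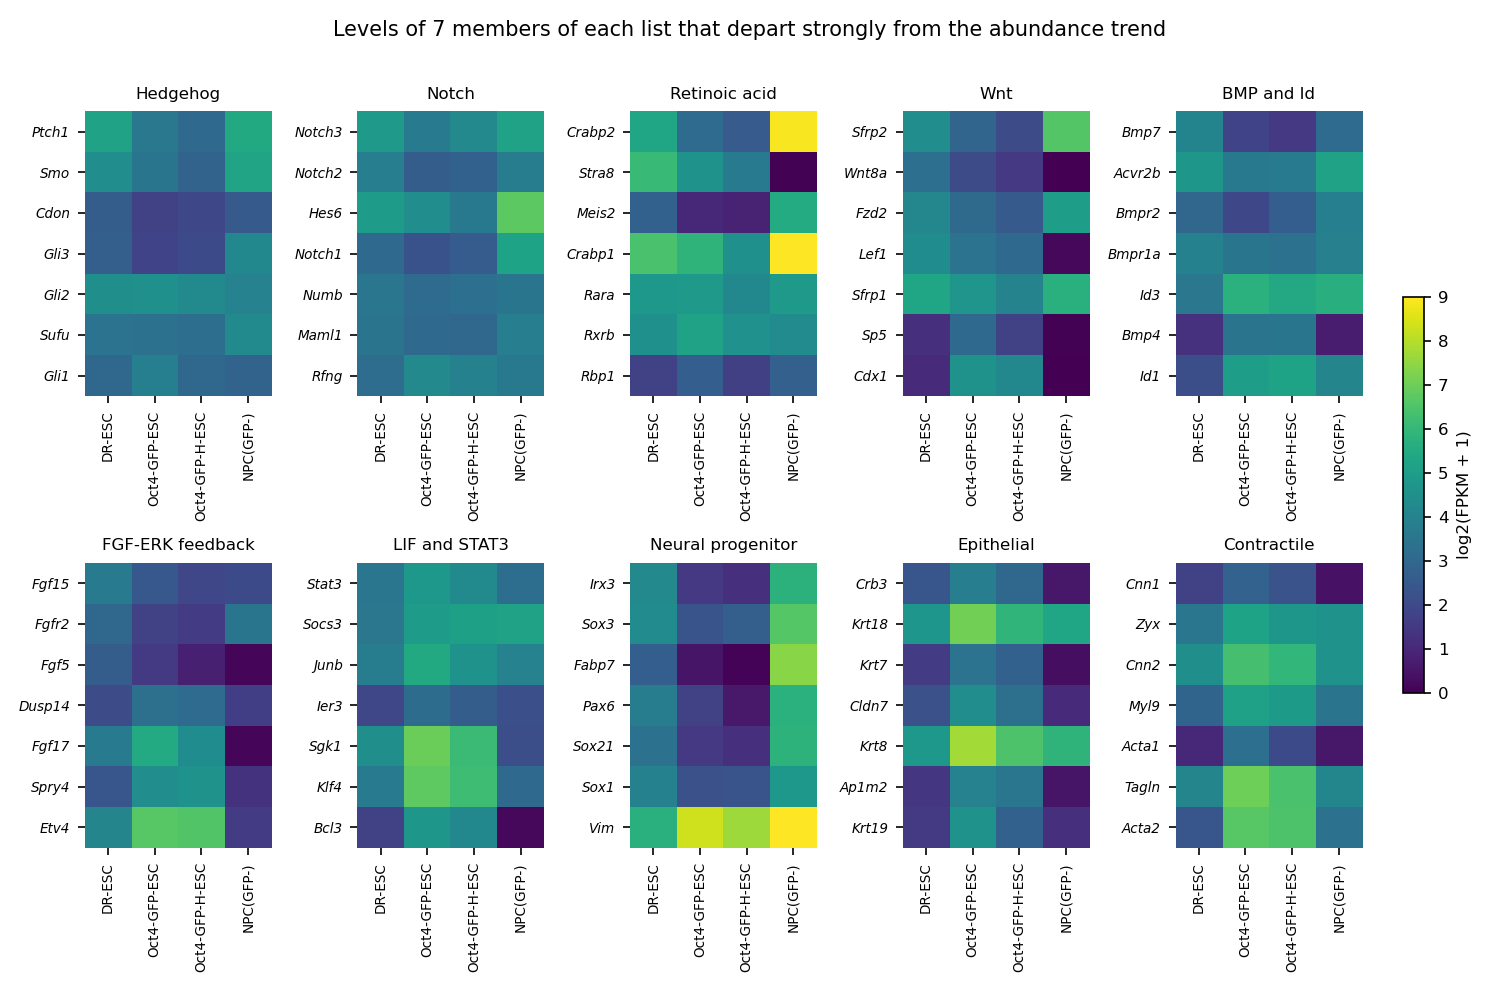
Levels, as log2(FPKM + 1) on the colour scale, of the 7 members of 10 gene lists that depart most from the abundance trend, among the reported genes with at least 5 FPKM in DR-ESC or Oct4-GFP-ESC. Columns are the 4 libraries, with DR-ESC at the left, and rows run from the highest to the lowest trend-removed difference. Ptch1, Notch3 and Irx3 are higher in DR-ESC and NPC(GFP-) than in the other 2 libraries, and Klf4, Bcl3, Krt8 and Acta2 are lower.

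Sterol and fatty acid synthesis genes were higher in DR-ESC in many members. In the sterol synthesis list of 24, 9 were higher and 0 lower as deposited (median 0.65), 15 and 0 with the trend removed (median 1.43), and 23 of 24 lay above the trend. Together they had 1341 FPKM in DR-ESC, 808 in the parental line, 429 in the GFP-high cells and 1509 in the progenitors, so that DR-ESC lay near the neural progenitors and the GFP-high cells lay lowest. Insig1 (chromosome 5, 28071412 to 28078662), which holds the sterol sensor of the endoplasmic reticulum in place, had 98.3 FPKM in DR-ESC, 30.5 in the parental line, 14.1 in the GFP-high cells and 145 in the progenitors. The 1 gene below the trend was Ebp, a sterol isomerase, with 9.70 FPKM in DR-ESC and 15.4 in the parental line.

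Sterol genes are controlled by SREBP factors, which bind the sterol regulatory element. The promoter window of Hmgcs1, an early enzyme of sterol synthesis, is shown because its gene was among the highest and its window holds that element. Hmgcs1 had 131 FPKM in DR-ESC, 57.2 in the parental line, 34.1 in the GFP-high cells and 245 in the progenitors, a trend-removed difference of 1.93. The RefSeq window (GRCm38.p6, plus strand) is printed with the element in capitals, which begins 137 bases before the start.
Hmgcs1, chr13:119690101-119690400: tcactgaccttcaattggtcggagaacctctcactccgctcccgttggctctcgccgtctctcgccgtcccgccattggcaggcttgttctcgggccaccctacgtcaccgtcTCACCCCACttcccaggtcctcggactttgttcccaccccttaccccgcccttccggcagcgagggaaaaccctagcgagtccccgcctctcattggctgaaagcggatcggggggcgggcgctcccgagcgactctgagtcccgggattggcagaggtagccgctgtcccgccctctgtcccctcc
The letters searched were TCACNCCAC on both strands. Windows were at hand for 16 of the 24 sterol genes, and Hmgcs1 was the 1 that held them (6.25%), against 1.44% of the 27025 genes with a window.

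In the list of fatty acid synthesis and desaturation 4 of 23 were higher and 0 lower as deposited (median 0.30), and 6 and 0 with the trend removed (median 0.61), and the desaturases led. Fads2, which makes polyunsaturated fatty acids, had 110.0 FPKM in DR-ESC, 28.0 in the parental line, 17.1 in the GFP-high cells and 97.3 in the progenitors. Scd1, which makes monounsaturated ones, had 48.7, 13.1, 5.93 and 36.4 FPKM, and Acly, which supplies acetyl-CoA, 142, 92.9, 62.1 and 173. In all of these genes the GFP-high cells were the lowest of the 4 libraries. Genes of fatty acid oxidation did not show this shift: 0 of 25 were higher and 3 lower as deposited, 1 and 0 with the trend removed, and the median of that list was -0.54 as deposited, -0.13 with the trend removed and 0.20 with equal sums. Of all genes 2.95% were higher and 12.2% lower as deposited, and 4.71% and 4.56% with the trend removed.

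Glucose uptake, glycolysis and hypoxia response genes were above the abundance trend. Of 34 genes, 4 were higher and 1 lower as deposited (median 0.22), 11 and 0 with the trend removed (median 0.84), and 31 of 34 lay above the trend. Their sum as deposited was lower in DR-ESC, with 10782 FPKM, than in the parental line, with 14277. It was 8339 in the GFP-high cells and 5007 in the progenitors. The glucose transporters Slc2a1 (chromosome 4, 119108745 to 119137330) and Slc2a3 had 448 and 533 FPKM in DR-ESC, 226 and 359.6 in the parental line, 176 and 409 in the GFP-high cells and 113 and 55.2 in the progenitors. Among genes induced by hypoxia, Bnip3, a mitophagy receptor, had 50.9 FPKM in DR-ESC and 12.2 in the parental line, and Ndrg1 21.0 and 4.96. Aldoc, a glycolytic aldolase, had 26.9 FPKM in DR-ESC, the highest of the 4 libraries, against 5.83 in the parental line, 2.52 in the GFP-high cells and 6.34 in the progenitors. Gapdh, an abundant glycolytic enzyme, changed its sign with the scaling: with 3424 FPKM in DR-ESC, compared with 5379 in the parental line, it differed by -0.65 as deposited and by 0.35 with the trend removed. Ldha, the lactate dehydrogenase subunit of glycolytic cells, was the 1 gene lower as deposited, with 430.3 FPKM in DR-ESC, compared with 979 in the parental line, and stood 0.20 below the trend.

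The hypoxia-inducible factors bind sites around the core ACGTG. The window of Bnip3 is shown because it was the highest of the list on the trend-removed scale and holds this core on both strands, in overlapping copies that read CACGTG. It is printed on its own, minus strand of GRCm38.p6 (RefSeq), with the cores in capitals.
Bnip3, chr7:138909457-138909756: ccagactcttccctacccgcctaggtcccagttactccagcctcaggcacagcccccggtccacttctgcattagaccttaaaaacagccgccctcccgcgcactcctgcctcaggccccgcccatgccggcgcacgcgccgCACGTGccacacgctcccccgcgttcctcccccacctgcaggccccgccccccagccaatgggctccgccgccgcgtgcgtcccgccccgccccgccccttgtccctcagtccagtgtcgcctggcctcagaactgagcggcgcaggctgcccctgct
Read on both strands, ACGTG was in the windows of 22 of the 31 genes of the list that had a window (71%), and in 21.8% of the 27025 genes. Those 27025 are genes with a window, whether or not they were among the 12260 compared. They were not matched to the list by expression or by base composition, and the part of these in the gap was not tested. The list was drawn up in part from known hypoxia targets.

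**Figure D5:**
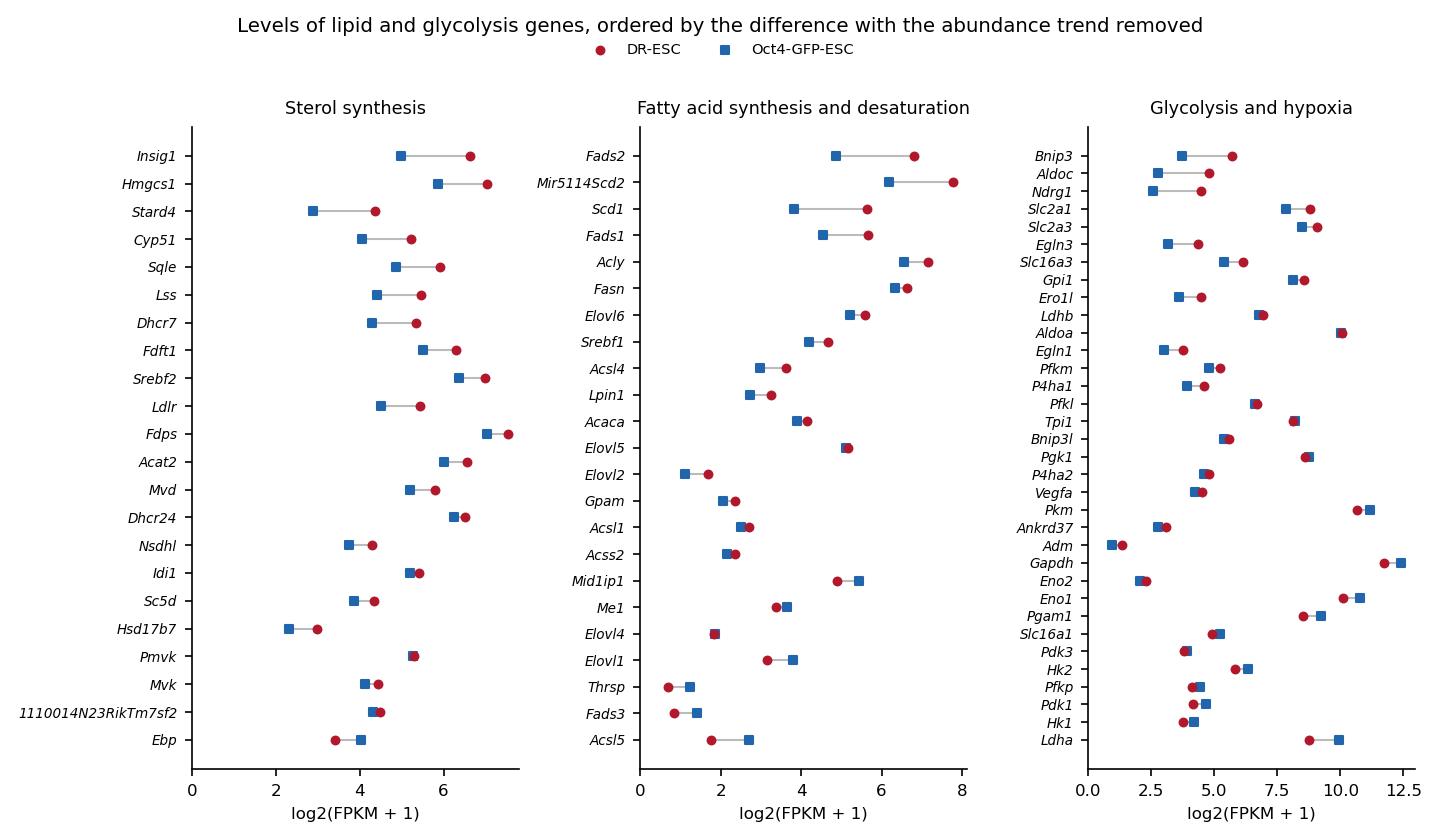
Levels, as log2(FPKM + 1), of 22 compared genes of sterol synthesis and all of fatty acid synthesis (23) and glycolysis and hypoxia (34), ordered by their difference with the abundance trend removed. Red circles are DR-ESC and blue squares Oct4-GFP-ESC. DR-ESC lies to the right in all sterol genes drawn but Ebp, and in glycolysis the order of the 2 libraries changes from the top of the panel to the bottom.

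Amino acid metabolism lay on the other side. Tdh, the mouse threonine dehydrogenase that feeds one-carbon metabolism in embryonic stem cells (chromosome 14, 63492347 to 63509092), had 53.4 FPKM in DR-ESC, 394 in the parental line, 184 in the GFP-high cells and 0.306 in the progenitors, a difference of -2.86 and of -1.94 with the trend removed. In the list of serine, glycine, threonine and one-carbon genes, 0 of 23 were higher and 11 lower as deposited (median -0.97), and 0 and 3 with the trend removed (median -0.19). The others lower with the trend removed were Psph, the last enzyme of serine synthesis, and Gcsh, a subunit of the glycine cleavage system, with 11.6 and 28.8 FPKM in DR-ESC, compared with 33.9 and 96.7 in the parental line. Of 33 genes of the amino acid response driven by ATF4, 1 was higher and 16 lower as deposited (median -0.999), and 1 and 3 with the trend removed (median -0.30). The 3 were Chac1, Trib3 and Psph. Chac1 and Trib3 had 5.21 and 7.86 FPKM in DR-ESC, compared with 19.4 and 27.4 in the parental line. The higher one was Ddit4, an inhibitor of mTORC1 that several stresses induce, hypoxia included, with 142 FPKM in DR-ESC, 58.2 in the parental line, 45.6 in the GFP-high cells and 77.3 in the progenitors.

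The machinery of growth was lower as deposited, in abundant genes for which the trend itself is steep. The 78 cytosolic ribosomal protein genes had a median of -0.9996 as deposited and of -0.01 with the trend removed, and 0 of them were 2-fold apart on that scale. The running median at their level is taken over genes that include them, so a difference of their own and the trend cannot be told apart. Their summed level was 91189 FPKM in DR-ESC, 182554 in the parental line and 98380.5 in the GFP-high cells. The 74 respiratory chain genes behaved alike (-0.95 and -0.09), as did the 37 translation factors (-1.02 and -0.07). Less abundant genes of the same machinery stayed below the trend. Of 73 mitochondrial ribosomal protein genes 72 lay below it (median -0.43, and -1.04 as deposited), led by Mrpl35 with 4.12 FPKM in DR-ESC and 11.3 in the parental line, and 2 were 2-fold lower. Of 38 ribosome biogenesis genes 36 lay below it (median -0.42, and -1.09 as deposited), led by Bop1 with 32.2 and 108 FPKM, and of 20 aminoacyl-tRNA synthetase genes 18 (median -0.45, and -1.15 as deposited), led by Sars with 47.7 and 129.6 FPKM. As deposited, 42 of the 73, 27 of the 38 and 15 of the 20 were 2-fold lower. The medians of these lists were below 0 under each of the scalings run (-0.28, -0.32 and -0.38 with equal sums). For comparison, 12.2% of all genes were 2-fold lower as deposited. In the eighth of genes with the highest levels 518 of 1533 were, and in the eighth below it 256 of 1532. Among 38 proteasome genes 24 were 2-fold lower as deposited. With the trend removed 34 lay below it, and the 2 that were 2-fold lower, Psmb10 and Psmb8, encode immunoproteasome subunits, with 6.40 and 1.81 FPKM in DR-ESC, compared with 24.3 and 5.42 in the parental line.

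The actin cytoskeleton and the epithelial genes were lower in part. In the contractile list of 33, 0 were higher and 17 lower as deposited (median -1.05), and 1 and 9 with the trend removed (median -0.08). The lower ones include genes of smooth muscle: Acta2, smooth muscle actin, had 4.35 FPKM in DR-ESC, 99.2 in the parental line, 87.7 in the GFP-high cells and 9.13 in the progenitors, and Tagln had 16.1, 129.8, 85.2 and 16.4. Actb, the general actin, stood on the trend (-0.08) with 1136 FPKM in DR-ESC, compared with 2406 in the parental line. The gene higher with the trend removed was Lima1, an actin-bundling protein, with 51.3 FPKM in DR-ESC and 37.3 in the parental line. Tmsb4x, which encodes an abundant actin-sequestering peptide, had 67.3 FPKM in DR-ESC, 437 in the parental line, 278 in the GFP-high cells and 628 in the progenitors, the lowest value again in DR-ESC. Of 31 tight junction and epithelial genes, 0 were higher and 14 lower as deposited (median -0.84), and 1 and 10 with the trend removed (median -0.48). Cldn7, a claudin, had 3.72 FPKM in DR-ESC, compared with 20.1 in the parental line, and Krt8 27.1 against 214, while Cdh1, which encodes E-cadherin, was on the trend (-0.10) with 48.0 and 83.7. Acta2, Tagln and Vim are abundant in fibroblasts, and of 32 genes of the fibroblast list 29 were lower and 0 higher both as deposited (median -2.78) and with the trend removed (median -2.65). The 12 fibroblast markers in the table summed to 11.5 FPKM in DR-ESC and 434 in the parental line, and their part in the lower genes of this paragraph was not tested. Sfn, an epithelial 14-3-3 protein, had 7.85 FPKM in DR-ESC, compared with 183 in the parental line and 192 in the GFP-high cells.

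Stress-responsive and immune genes made smaller groups. In the immediate-early list of 22, 2 were higher and 7 lower as deposited, 3 and 6 with the trend removed, and the median was -0.43 as deposited, 0.02 with the trend removed and 0.32 with equal sums. Egr1 and Fos, which answer to growth factors and to handling within minutes, had 55.5 and 40.3 FPKM in DR-ESC, 20.4 and 19.3 in the parental line, 11.1 and 12.95 in the GFP-high cells and 44.1 and 41.7 in the progenitors. Myc, a growth regulator that LIF also sustains, had 5.78 FPKM in DR-ESC, 29.8 in the parental line, 28.4 in the GFP-high cells and 4.74 in the progenitors. The genes of the list therefore differed in opposite directions. Of 24 interferon and antigen presentation genes, 0 were higher and 9 lower as deposited (median -0.81), and 0 and 7 with the trend removed (median -0.53). Isg15, a ubiquitin-like protein induced by interferon, had 0.383 FPKM in DR-ESC, 5.92 in the parental line and 4.17 in the GFP-high cells. Gbp2, an interferon-induced GTPase, had 1.68 FPKM in DR-ESC, 9.31 in the parental line and 3.61 in the GFP-high cells. Fibroblasts express these genes too, and the part of the fibroblast markers (11.5 FPKM in sum in DR-ESC and 434 in the parental line) was not tested. Tfeb, the transcription factor of lysosome genes, had 2.73 FPKM in DR-ESC and 20.01 in the parental line. Of 40 genes of the lysosome and autophagy list 6 were lower and 0 higher as deposited (median -0.46), and 2 and 0 with the trend removed (median -0.06). Of all genes 12.2% were lower as deposited and 4.56% with the trend removed.

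Trophoblast and axon guidance genes closed the developmental lists. Of 14 trophoblast genes, 0 were higher and 8 lower as deposited (median -1.09), and 0 and 7 with the trend removed (median -0.96), and 4 of the 7 were keratin genes. Eomes, a factor of trophoblast stem cells and of mesoderm, had 2.30 FPKM in DR-ESC, 6.89 in the parental line and 6.40 in the GFP-high cells. Of 38 axon guidance genes 3 were higher and 3 lower as deposited (median 0.09), and 6 and 3 with the trend removed (median 0.22). Efnb1, a membrane-bound ephrin ligand, had 15.5 FPKM in DR-ESC, 6.31 in the parental line, 3.64 in the GFP-high cells and 23.9 in the progenitors. Epha1, a receptor of other ephrins, had 0.963, 6.78, 3.83 and 0.354 FPKM in that order of libraries.

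Basement membrane genes departed from the other matrix genes. The list of 17 had 0 higher and 1 lower as deposited, 3 and 1 with the trend removed, and a median of -0.07 as deposited, 0.50 with the trend removed and 0.71 with equal sums. Col4a1 and Col4a2, the chains of type IV collagen, had 115 and 69.9 FPKM in DR-ESC, 59.2 and 40.3 in the parental line, 47.7 and 30.3 in the GFP-high cells and 857 and 543 in the progenitors. Nid2, a linker of the membrane, had 105, 59.9, 65.9 and 44.5 FPKM. In contrast, the fibril collagen genes Col1a1 and Col1a2 had 2.03 and 0.349 FPKM in DR-ESC and 92.4 and 41.0 in the parental line.

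Imprinted genes, of which the parental origin decides the active copy, differed gene by gene. Of 41, 2 were higher and 6 lower as deposited, 7 and 4 with the trend removed, and the median was -0.29 as deposited, 0.04 with the trend removed and 0.41 with equal sums. The largest difference lay in the Dlk1-Dio3 region of chromosome 12. Meg3, the maternally expressed long noncoding RNA of the region, which the table joins with microRNA genes in its transcript (109540996 to 109571729), had 0.166 FPKM in DR-ESC, 13.3 in the parental line, 20.1 in the GFP-high cells and 0.0364 in the progenitors. Rian, further along the region and also in a joined row, had 0.252, 9.81, 8.86 and 0.780 FPKM. Dlk1 and Dio3, the paternally expressed coding genes at its ends, differed in opposite directions as deposited: Dlk1 had 1.58 FPKM in DR-ESC and 2.56 in the parental line, and Dio3 3.71 and 1.04. H19, the noncoding RNA beside Igf2, had 13.4 FPKM in DR-ESC, compared with 42.7 in the parental line. Mest (chromosome 6, 30733506 to 30748466) and Peg3, both paternally expressed, had 80.7 and 26.5 FPKM in DR-ESC, compared with 36.2 and 15.7 in the parental line, and Cdkn1c, a maternally expressed inhibitor of cyclin-dependent kinases, 24.8 against 15.01. Values of this kind give the summed RNA of both copies, so parental origin was not measured. The fibroblast markers summed to 11.5 FPKM in DR-ESC, 434 in the parental line, 400.4 in the GFP-high cells and 15.9 in the progenitors. The part of fibroblast RNA in the lower levels of Meg3, Rian and H19 was not tested.

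Germ cell genes were higher in a few members. Of 29, 6 were higher and 1 lower as deposited (median 0.52), and 8 and 0 with the trend removed (median 0.57). Sohlh2, a transcription factor of early germ cells, had 17.2 FPKM in DR-ESC, 3.41 in the parental line and 5.39 in the GFP-high cells, and Dazl, an RNA-binding protein of germ cells, 8.002, 0.712 and 2.99. Rec8, a cohesin subunit of meiosis, had 21.5, 10.9 and 6.82 FPKM. Kit, the receptor of stem cell factor in primordial germ cells, had 22.97 FPKM in DR-ESC, 7.39 in the parental line, 7.98 in the GFP-high cells and 22.5 in the progenitors, and was the 1 gene of the 18 in the primordial germ cell list to pass 2-fold with the trend removed (median 0.23), while 1 was higher and 1 lower as deposited (median -0.38). Prdm1 and Prdm14 specify those cells. Prdm1 had 5.43 FPKM in DR-ESC and 2.68 in the parental line, a difference of 0.81 on the log2(FPKM + 1) scale as deposited and of 1.49 with equal sums, so whether it passed 2-fold depended on the scaling. Prdm14 had 7.52 FPKM in DR-ESC and 5.66 in the parental line.

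Cell cycle and chromatin lists differed in how many members were 2-fold apart. Of 34 mitosis genes 1 was lower as deposited, and none was 2-fold apart with the trend removed. Of 35 replication genes 0 were higher and 5 lower as deposited (median -0.72), and 0 and 2 with the trend removed (median -0.04). Of all genes 12.2% were lower as deposited and 4.56% with the trend removed. The lower replication genes were led by Ccne1, the cyclin that starts S phase. It had 32.4 FPKM in DR-ESC, 185 in the parental line, 102 in the GFP-high cells and 15.6 in the progenitors. The row of Ccnd1, a cyclin of the preceding phase joined with a microRNA, had 24.8 FPKM in DR-ESC and 85.4 in the parental line. Of 31 genes of CDK inhibitors and p53 targets, 1 was higher and 6 lower as deposited (median -0.26), and 3 and 3 with the trend removed (median 0.20). Trp53inp1, a p53 target that promotes arrest and autophagy, had 45.3 FPKM in DR-ESC and 20.3 in the parental line. Of 19 DNA methylation genes 0 were higher and 4 lower as deposited (median -0.32), and 0 and 1 with the trend removed (median 0.18). Of 29 Polycomb genes 1 was higher, Bmi1, a subunit of Polycomb repressive complexes of the first kind, with 3.87 FPKM in DR-ESC, 1.10 in the parental line and 13.2 in the progenitors, while 2 were lower as deposited and 0 with the trend removed. Of 21 Trithorax and H3K4 genes 1 was lower as deposited, and of these and of 27 recombination genes none was 2-fold apart with the trend removed. Of 303 genes with a Zfp symbol 5 were higher and 5 lower as deposited, and 6 and 3 with the trend removed, shares below the 4.71% and 4.56% of all genes on that scale.

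By chromosome, the trend-removed median of the 20 chromosomes ran between -0.09 on chromosome 8 and 0.18 on chromosome 1, and the deposited medians between -0.42 and -0.15. The chromosome X median was 0.06. No chromosome median was near 2-fold, on a value that is centred on 0 over all genes. Each median covers many mixed genes, 298 to 1013, so its spread cannot be set against that of the gene lists. Smaller shifts of a whole chromosome were not tested. Xist, the noncoding RNA of the inactive X chromosome, was low, with 0.340 FPKM in DR-ESC, 1.30 in the parental line, 1.28 in the GFP-high cells and 0.106 in the progenitors.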

How the data were processed

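The table holds 1 column for each of 4 poly(A) RNA libraries, as log2 values that the authors deposited. The values themselves show log2(FPKM + 1), and FPKM was recovered by undoing that step. The submitters' processing notes list the build mm10 and the tools TopHat2 2.0.9, Bowtie 0.12.8, CASAVA 1.8, HTSeq and DESeq2 without saying what each did. Strand setting, read depth and the source of the FPKM are not given in any text at hand. Of 13199 rows, 19 with symbols turned into dates were dropped. Rows that join overlapping genes (295) were kept under their joined symbols. RefSeq names matched 97.1% of the symbols.

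From these values the log2 difference was taken for genes that reached 1 FPKM in DR-ESC or Oct4-GFP-ESC, with pseudocount 1, in Python 3.11.15 (numpy 2.4.6, pandas 2.3.3). Genes were ordered by their mean level, and a running median along that order was subtracted for the trend-removed value. The trend step was run on simulated data with little noise, and with 4-fold differences in genes well above the 1 FPKM limit. That run does not show how reliable the 2-fold calls are, least of all at low levels. Counting is by size, at least 2-fold, since no test is possible with 1 library a group. The lists and comparisons were chosen with earlier results of these data known.

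Named genes are the 12 highest and 12 lowest differences at 5 FPKM or more in either library, the same by trend-removed difference at 20 FPKM or more in both, the 5 members of each list that depart most from the trend at 5 FPKM or more, genes at 0 in 1 library, and a few by name. The following were chosen after their values were seen: Axin2, Bmi1, Bmpr2, Boc, Ccnd1, Cdh1, Dio3, Dkk1, Dlk1, Dll1, Ebp, Eif1, Fgf5, Gas1, H19, Hes1, Hes5, Hoxc6, Hoxc8, Il6st, Ldha, Lifr, Lima1, Rara, Rxra, Socs3, Sp110, and the genes given for the stretches of neighbouring genes, Hoxa9 and Tcstv3 among them. Promoter windows come from RefSeq on GRCm38.p6, as do the coordinates. Some genes are not reported here and are left out of the figures, but count in the totals of their lists.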

Additional observations from a re-analysis of the deposited data

How the results depend on the processing

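The counts of 362 higher and 1492 lower genes depended on the settings. With a pseudocount of 0.1 there were 730 higher genes, and with a pseudocount of 5 there were 82 higher and 874 lower. With a minimum of 5 FPKM 198 genes were higher. A 4-fold size left 61 higher and 156 lower. Removing the abundance trend gave 578 and 559, and 565 and 563 with a wider window. Setting the median ratio to 0 gave 980 and 489, equal upper quartiles 1030 and 464, and equal sums 2089 and 296. Of the 64 list medians, 55 kept their direction and their side of 2-fold with the trend removed, or lay within 2-fold both times, and 50 did so with equal sums; of the 328 single genes 252 and 202 did. The cause of these shifts was not tested. No paired analysis was possible because each group has 1 library. Differences of genes near 1 FPKM rest on few reads, in a number the files do not give.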

Other observations

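Over the 13180 genes, those in which 1 library lay at least 2-fold beyond all of the other 3 were counted. The count used log2(FPKM + 1) as deposited, with no minimum level and the abundance trend left in. Sums of FPKM were 398522 in DR-ESC, 687303 in the parental line, 437605 in the GFP-high cells and 345804 in the progenitors. The part of these unequal sums in the counts was not tested. DR-ESC lay above the others for 42 genes and below for 57, while the parental line lay above for 123 and below for 4. The progenitors lay above for 1441 and below for 1074, and the GFP-high cells for 11 and 25. The genes named here were chosen from these counts after their values were seen.

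Among the genes highest in DR-ESC, Ndufa4l2, a mitochondrial protein induced by hypoxia, had 13.6 FPKM in DR-ESC, against 2.11 in the parental line, 1.21 in the GFP-high cells and 0.884 in the progenitors. Pygl, a glycogen phosphorylase, had 4.33 FPKM in DR-ESC, against 0.624, 0.475 and 0.282. Among the genes lowest in DR-ESC, Timp2, an inhibitor of matrix metalloproteinases, had 1.74 FPKM in DR-ESC, against 22.2, 20.3 and 13.2. Prss23, a secreted protease, had 1.31 FPKM, against 14.1, 16.4 and 12.9, and App, the amyloid precursor, had 8.65, against 30.4, 32.0 and 87.5. DR-ESC had the lowest level of the 4 libraries for these genes. The 12 fibroblast markers summed to 11.5 FPKM in DR-ESC, 434 in the parental line, 400.4 in the GFP-high cells and 15.9 in the progenitors, and the part of fibroblast RNA in these genes was not tested.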
